A study of Homo sapiens with 24 samples.

Results

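The genes described here are 8 integrin subunits that bind laminins or collagens. ITGA1, ITGA2, ITGA10 and ITGA11 encode the collagen-binding α subunits, ITGA3, ITGA6 and ITGA7 encode laminin-binding α subunits, and ITGB4 encodes the β subunit that pairs with α6. They were chosen by name from 34834 genes with a transcript in the deposited tables, and all 8 were among the 17453 genes with enough reads to be tested. The cells were SK-MES-1, an established line from a squamous cell carcinoma of the lung, which is a single line and therefore 1 genetic background. Cells of both arms were starved of serum for 3 h and then left untreated or given TGFβ1 at 2 ng/ml, and RNA was sequenced at 0, 8, 24 and 48 h. Each of the 8 groups (untreated and TGFβ1 arm at each time) held 3 libraries labelled as replicates, 24 in all, and no source used here says whether a replicate number marks a shared day or culture.

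Integrins are receptors made of an α and a β chain that span the cell membrane, hold the cell to the extracellular matrix and pass signals in both directions. The α1, α2, α10 and α11 chains pair with β1 and carry an inserted domain that grips collagen, whereas α3, α6 and α7 pair with β1 on laminin. In epithelia α6 also pairs with β4, and α6β4 anchors the keratin network to the basement membrane in hemidesmosomes. TGFβ is a secreted growth factor that acts through Smad proteins, and epithelial cells exposed to it are known to change their matrix and the receptors for it.

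Among these genes, ITGA6 is a case in which the gene total and its isoforms gave different results, so the piece of sequence that separates its isoforms is shown here. The gene lies on chromosome 2 of GRCh38 from 172427354 to 172506459, plus strand. ITGA6-201 contains a cassette exon of 130 bases at chr2:172501772-172501901 that ITGA6-202 skips. These are the forms known as α6A and α6B, which differ in the cytoplasmic tail. The coding part of that exon in the GRCh38 reference, chr2:172501772-172501879, spans 108 bases and ends the α6A reading frame, with the stop codon in capitals.
ITGA6 cassette exon, coding part: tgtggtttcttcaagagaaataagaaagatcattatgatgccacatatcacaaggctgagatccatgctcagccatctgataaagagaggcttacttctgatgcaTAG

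The collagen-binding subunits with the largest arm difference in each direction at 48 h were ITGA11 and ITGA10, and the 250 bases before their start sites are shown because these genes differed between the arms at 8, 24 and 48 h in opposite directions. The sequences are from RefSeq, build GRCh38.p14, minus strand, at chr15:68432164-68432413 for ITGA11 and chr1:145910051-145910300 for ITGA10. The RefSeq start of ITGA10 lies inside the gene as GENCODE bounds it, so 61 bases of its window fall within the gene coordinates given below.
ITGA11 promoter: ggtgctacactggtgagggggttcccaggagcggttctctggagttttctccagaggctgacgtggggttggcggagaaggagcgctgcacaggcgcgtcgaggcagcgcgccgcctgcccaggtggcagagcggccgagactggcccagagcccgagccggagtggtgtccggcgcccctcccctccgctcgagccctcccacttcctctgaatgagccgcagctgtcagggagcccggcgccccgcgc
ITGA10 promoter: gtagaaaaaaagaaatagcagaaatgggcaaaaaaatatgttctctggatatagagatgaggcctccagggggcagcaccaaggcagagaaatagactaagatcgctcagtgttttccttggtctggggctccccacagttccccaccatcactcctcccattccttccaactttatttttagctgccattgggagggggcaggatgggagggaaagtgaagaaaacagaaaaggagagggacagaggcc
The ITGA11 window is 71.2% G and C and the ITGA10 window 48.4%. A search on both strands for CAGACA, a form of the Smad element, and TGANTCA, the AP-1 element, found neither in these windows nor in those of ITGA1, ITGA2 and ITGA6, so no letters of the promoters are in capitals. CAGACA was present in 13.6% and TGANTCA in 6.57% of 35116 RefSeq promoter windows of the same length. Promoters were matched for these 5 members, and those of ITGA3, ITGA7 and ITGB4 were not analysed here.

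The libraries summed to 46613589 to 77964234 estimated counts each. Estimated counts are the reads that kallisto assigns to a transcript, and they were summed per gene. TPM is the scaled number of transcripts, which corrects them for transcript length, so that levels of different genes can be set side by side. Of the markers of squamous and basal epithelium, KRT5, KRT14, KRT6A and DSG3 reached at most 8.1 estimated counts in any library and were not tested, whereas TP63 was at 7.69 to 37.5 TPM and EPCAM at 21.6 to 37 TPM. At 48 h 1 of the 5 tested markers of that list was higher and 4 were lower, with KRT17, a basal keratin, at 70.5 ± 1.06 against 5.41 ± 0.613 TPM and SOX2, a squamous lineage factor, at 0.432 ± 0.0557 against 5.23 ± 0.477 TPM in untreated cells. The summed TPM of 5 fibroblast markers (PDGFRA, PDGFRB, LUM, DCN, THY1) was 57.2 to 58.9 in untreated cells and 45.7 to 50 in the TGFβ1 arm at 48 h, that of 3 endothelial markers at most 4.54 and that of 3 leukocyte markers at most 4.19, with CD3E at 0 in every library. Among the fibroblast markers 1 was higher (PDGFRB, log2 difference 2.26 ± 0.072) and 4 were lower (DCN with -3.30 ± 0.14) at 48 h. The 2 tested endothelial markers, PECAM1 and VWF, were both higher (0.68 ± 0.11 and 0.97 ± 0.23). VWF was near the floor, at 0.289 ± 0.0496 against 0.2 ± 0.0881 TPM and at most 71 estimated counts in any library. These marker calls stand against 16.1% of all genes higher and 16.4% lower at 48 h. The part of these markers in the results was not tested. Table names carry 4 codes, which the labels do not explain, each covering 1 arm at 0 and 8 h or at 24 and 48 h. Within 8, 24 or 48 h, code and treatment therefore cannot be told apart. A constant offset between codes cancels in the comparison of 8 h with 0 h and in that of 48 h with 24 h. SMAD7, PMEPA1 and SKIL, known response genes of TGFβ, were each higher in the TGFβ1 arm at 8, 24 and 48 h.

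The first question was whether the transcript levels of these integrins followed different courses in the 2 arms. With limma voom, 7 of the 8 members passed the F-test over 8, 24 and 48 h at an adjusted p below 0.01, and ITGA6 did not (adjusted p = 0.24). All 8, ITGA6 included, passed under reference gene scaling or when replicate numbers were blocked inside every time point. In the main test 42.5% of all tested genes passed, against 64.1% with reference gene scaling and 57.3% with that block. The libraries are of bulk RNA, in which fewer cells with a transcript and less of it per cell cannot be told apart. At 0 h, where stimulation has had no time to act, 0 members and 0% of all genes passed. Below an unadjusted p of 0.05 (limma voom) were 1 member (ITGA10, log2 difference -0.19 ± 0.076 SE) and 800 of all 17453 genes. DESeq2 and edgeR also called 0 members at 0 h.

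**Figure D1:**
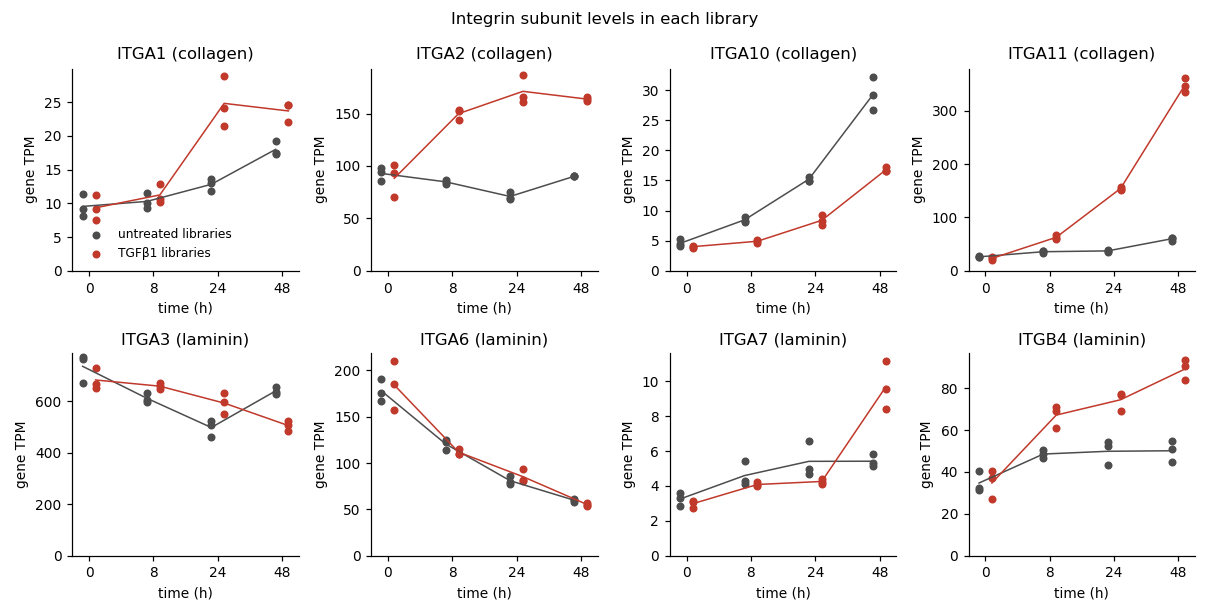
Gene TPM of the 8 integrin subunits in each library against time in hours (time points evenly spaced), with points for libraries, lines through group means, grey for untreated and red for the TGFβ1 arm. ITGA11 reached 335 to 362 TPM in the TGFβ1 arm at 48 h against 56.3 to 62.2 in untreated cells. The ITGA6 courses of the arms ran close, with overlap at 0, 8 and 24 h and the TGFβ1 libraries below at 48 h.

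At 8 h, 3 members were higher (ITGA2, ITGA11, ITGB4) and 1 was lower (ITGA10) in the TGFβ1 arm, against 9.12% of all genes higher and 7.26% lower. At 24 h, 4 were higher (the same 3 and ITGA1) and ITGA10 was lower, against 15.4% and 13.8% of all genes. At 48 h, 5 were higher (ITGA1, ITGA2, ITGA7, ITGA11, ITGB4) and 2 were lower (ITGA3, ITGA10), against 16.1% and 16.4%. The median log2 difference of the 8 members was 0.19, 0.41 and 0.63 at 8, 24 and 48 h, and that of all genes -0.02, -0.02 and -0.01. The counts at 48 h over all genes were 2816 higher and 2870 lower with TMM factors, 2169 and 3927 with library totals, and 8373 and 1084 when scaled to 4 reference genes. Scaling to the reference genes moved the median of all genes to 0.34 on the log2 scale. Of these 4 genes, 2 were themselves lower in the TGFβ1 arm at 24 h with TMM factors, and 3 at 48 h, HPRT1 and GAPDH among them. Their median log2 differences were -0.34 and -0.35, where 13.8% and 16.4% of all genes were lower. For the members, library totals left the counts at 5 higher and 2 lower at 48 h, and reference gene scaling gave 5 higher and 1 lower.

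**Figure D2:**
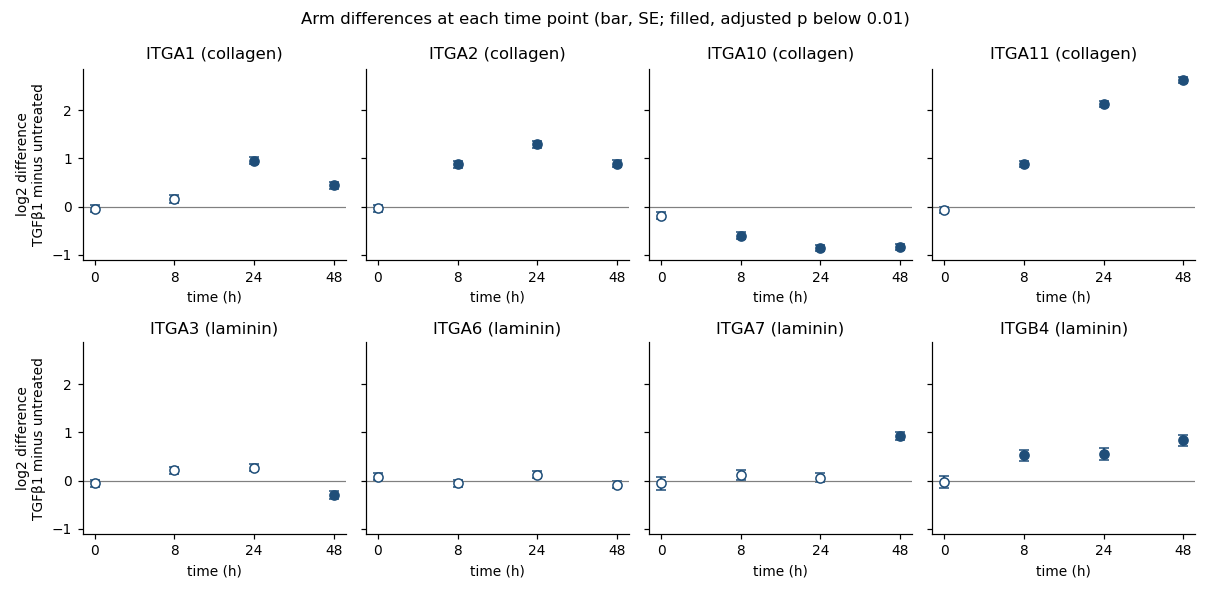
Log2 difference of each subunit, TGFβ1 arm minus untreated, at 0, 8, 24 and 48 h from limma voom on estimated counts, with bars for the SE (3 libraries per group) and filled points for an adjusted p below 0.01. ITGA11 climbed to 2.62 at 48 h, ITGA10 stayed below 0 from 8 h on, and the ITGA6 points were all open.

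ITGA11 encodes the α11 chain of a receptor for fibrillar collagen that is best known from fibroblasts, and it had the largest arm difference of the 8. The gene is on chromosome 15, 68296532 to 68432163, minus strand. Untreated libraries held 25.3, 25.1 and 28.3 TPM of it at 0 h and, by 48 h, 62.2, 62.1 and 56.3 TPM. In the TGFβ1 arm it was 20.7, 23.3 and 25.6 TPM at 0 h, 59.6, 61.2 and 67.5 TPM at 8 h, and 154, 152 and 157 TPM at 24 h. It reached 347, 362 and 335 TPM at 48 h. All TGFβ1 libraries lay above all untreated libraries at 8, 24 and 48 h, and the arms overlapped at 0 h. The log2 difference on estimated counts was 0.89 ± 0.066 (SE) at 8 h, 2.13 ± 0.065 at 24 h and 2.62 ± 0.062 at 48 h (adjusted p = 1.2e-09, 1.9e-16 and 2.3e-18, limma voom). Within the TGFβ1 arm it rose by 3.80 ± 0.065 from 0 to 48 h, a 14-fold change, and in untreated cells by 1.11 ± 0.068, a 2.17-fold change.

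ITGA2 encodes the α2 chain of a collagen receptor of epithelia and platelets. It lies on chromosome 5, 52989340 to 53094779, plus strand. Untreated libraries held 84.8, 86.7 and 83.1 TPM at 8 h and 90.1, 90.1 and 90.4 TPM at 48 h, while those of the TGFβ1 arm held 153, 144 and 153 TPM at 8 h and 165, 162 and 164 TPM at 48 h. The arms overlapped at 0 h and were apart at all later times. The log2 difference amounted to 0.88 ± 0.072 at 8 h, 1.29 ± 0.073 at 24 h and 0.89 ± 0.073 at 48 h (adjusted p = 4.7e-09, 5.9e-12 and 1.8e-09). In untreated cells its change from 0 to 48 h did not pass (-0.16 ± 0.074, adjusted p = 0.072), and it was the only member of which that was so.

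ITGA1 encodes the α1 chain, whose receptor binds collagen IV of basement membranes well. It lies on chromosome 5, 52787916 to 52959209, plus strand. Its levels at 8 h overlapped between the arms, with 9.32, 10.1 and 11.5 TPM in untreated cells and 10.3, 10.7 and 12.8 TPM in the TGFβ1 arm. At 24 h they did not overlap, with 11.9, 13.6 and 13.0 TPM against 24.1, 28.9 and 21.5 TPM. The log2 difference amounted to 0.16 ± 0.075 at 8 h (adjusted p = 0.13), 0.95 ± 0.071 at 24 h (5.5e-10) and 0.44 ± 0.07 at 48 h (2.6e-05). On log2(TPM + 1) the 48 h difference was 0.38 and no longer passed (adjusted p = 0.026). The exons of ITGA1 share 499 bases with PELO and 571 with the pseudogene RPL17P21 on the same strand, and kallisto divides reads of such stretches between genes, so the ITGA1 values carry that uncertainty. On the opposite strand its exons overlap those of ITGA2-AS1 by 1385 bases and of PELO-AS1 by 109 bases. A short transcript without a reading frame, ITGA1-206, held 2.49 to 5.43% of the gene's estimated counts but 38.8 to 57.9% of its TPM, so the TPM of ITGA1 stands well above that of its full-length transcript ITGA1-201 alone.

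ITGA10 encodes the α10 chain, a collagen receptor known from cartilage cells, and was the only collagen-binding member lower in the TGFβ1 arm. It lies on chromosome 1, 145891208 to 145910111, minus strand. Untreated libraries rose from 4.08, 4.41 and 5.22 TPM at 0 h to 32.2, 29.1 and 26.6 TPM at 48 h. Libraries of the TGFβ1 arm held 3.85, 4.03 and 4.16 TPM at 0 h and 17.3, 16.5 and 16.5 TPM at 48 h. Thus the gene rose in both arms, and its TGFβ1 libraries lay below all untreated libraries at 8, 24 and 48 h. The log2 rise from 0 to 48 h was 2.52 ± 0.066 in untreated cells and 1.88 ± 0.069 in the TGFβ1 arm, and the arm difference amounted to -0.60 ± 0.069 at 8 h, -0.86 ± 0.063 at 24 h and -0.84 ± 0.058 at 48 h (adjusted p = 7.9e-07, 3.5e-10 and 1.3e-10). Set against its difference at 0 h, the 8 h difference was -0.40 ± 0.1 and just missed the threshold (adjusted p = 0.0101).

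Among the laminin-binding members, ITGB4 alone was higher in the TGFβ1 arm at 8, 24 and 48 h. It encodes the β4 chain of the hemidesmosome, with a long cytoplasmic tail that binds plectin, and lies on chromosome 17, 75721328 to 75757818, plus strand. At 8 h it was at 48.6, 50.4 and 46.6 TPM in untreated cells and 71.1, 69.2 and 61.1 TPM in the TGFβ1 arm. At 48 h the values were 54.8, 51.1 and 44.5 TPM against 93.3, 90.5 and 83.7 TPM. The arms were apart at 8, 24 and 48 h. The log2 difference amounted to 0.52 ± 0.12 at 8 h, 0.55 ± 0.12 at 24 h and 0.83 ± 0.12 at 48 h (adjusted p = 0.0024, 8.2e-04 and 7.5e-06). Leaving out untreated replicate 2 or TGFβ1 replicate 1 or 2 at 8 h left differences of 0.51, 0.49 and 0.50 that did not pass (adjusted p = 0.011, 0.014 and 0.012). Against its difference at 0 h, the 8 h difference was 0.55 ± 0.17 and did not pass (adjusted p = 0.041), nor did that of 24 h (0.58, adjusted p = 0.017). With only the 6 libraries of 24 h that difference did not pass either (0.57, adjusted p = 0.017).

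ITGA7, the laminin receptor chain of muscle, was the least abundant member, with 149 to 709 estimated counts per library. It lies on chromosome 12, 55684568 to 55716404, minus strand. At 48 h it was at 5.84, 5.30 and 5.12 TPM in untreated cells and 11.2, 9.55 and 8.40 TPM in the TGFβ1 arm. The arms were apart, and the log2 difference was 0.92 ± 0.088 (adjusted p = 2.2e-08). At 24 h the estimated counts gave 0.06 ± 0.1 (adjusted p = 0.71), while in TPM the TGFβ1 libraries (4.25, 4.13 and 4.40) lay below the untreated ones (4.98, 6.58 and 4.69). The difference on log2(TPM + 1) at 24 h was -0.27 and did not pass either (adjusted p = 0.061). Its exons overlap those of BLOC1S1 by 119 bases and of METTL7B by 44 bases on the opposite strand, and whether the libraries keep the strand is not given in the sources used here.

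ITGA3, whose α3β1 receptor binds laminins of the epithelial basement membrane, was the most abundant member in every group. It lies on chromosome 17, 50055968 to 50090481, plus strand. At 24 h its level was 508, 460 and 524 TPM in untreated cells and 632, 549 and 596 TPM in the TGFβ1 arm. At 48 h it was 655, 637 and 626 TPM in untreated cells and 522, 509 and 484 TPM in the TGFβ1 arm. The libraries were apart at 8, 24 and 48 h. The TGFβ1 arm was above at 8 h (means 658 against 611 TPM) and at 24 h, and below at 48 h. The log2 difference amounted to 0.21 ± 0.08 at 8 h (adjusted p = 0.065), 0.27 ± 0.082 at 24 h (0.011) and -0.30 ± 0.082 at 48 h (0.0048). The 48 h difference did not pass without any single one of the 6 libraries of that time (-0.32 to -0.28, adjusted p up to 0.022), was -0.25 and did not pass against the difference at 0 h (adjusted p = 0.12), and was 0.05 when scaled to the reference genes. The 24 h difference passed with edgeR (adjusted p = 0.0094) and DESeq2 (0.0037), and without TGFβ1 replicate 2 of that time (0.37, limma voom adjusted p = 7.8e-04) or untreated replicate 3 (0.32, 0.0093). It also passed on log2(TPM + 1) and log2(TPM + 0.1), with length-scaled counts, reference genes or a replicate block, and without untreated replicate 2 or any TGFβ1 replicate of 0 h.

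ITGA6, the α6 chain shared by α6β1 and α6β4, fell in both arms. Untreated libraries held 167, 191 and 175 TPM at 0 h and 58.2, 61.2 and 60.1 TPM at 48 h. Those of the TGFβ1 arm held 157, 211 and 185 TPM at 0 h and 54.6, 54.0 and 57.0 TPM at 48 h. The arms overlapped at 0, 8 and 24 h, and at 48 h all TGFβ1 libraries lay below the untreated ones. The log2 fall from 0 to 48 h was -1.67 ± 0.068 in untreated cells and -1.85 ± 0.069 in the TGFβ1 arm. Between the arms the log2 difference amounted to -0.06 ± 0.067 at 8 h, 0.12 ± 0.069 at 24 h and -0.09 ± 0.072 at 48 h (adjusted p = 0.62, 0.18 and 0.31). With reference gene scaling the 24 h difference was 0.47 and passed (adjusted p = 2.9e-04), and those at 8 and 48 h turned positive. A replicate block within each time point left it at 0.12 at 24 h, where it passed (limma voom adjusted p = 0.0063). On the opposite strand its exons overlap those of ITGA6-AS1 by 125 bases and of PDK1-AS1 by 52 bases.

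Each arm was also compared with its own 0 h libraries. From 0 to 48 h, 5 members rose (ITGA1, ITGA7, ITGA10, ITGA11, ITGB4) and 2 fell (ITGA3, ITGA6) in untreated cells, where 28% of all genes rose and 27.1% fell. In the TGFβ1 arm 6 rose, with ITGA2 added, and the same 2 fell, against 29.8% and 28.1% of all genes. ITGA7 rose by 1.00 ± 0.11 in untreated cells and 1.97 ± 0.11 in the TGFβ1 arm on the log2 scale. ITGB4 rose by 0.45 ± 0.12 and 1.30 ± 0.12, and ITGA1 by 0.68 ± 0.073 and 1.16 ± 0.073. ITGA3 changed by -0.31 ± 0.081 in untreated cells and -0.56 ± 0.082 in the TGFβ1 arm, and these were -0.12 and -0.00 with reference gene scaling and did not pass there. In untreated cells the ITGA3 change did not pass without replicate 1 (-0.26) or 3 (-0.29) of 0 h. That of ITGB4 did not pass without replicate 2 (0.36) or 3 (0.44) of 0 h or replicate 1 (0.40) or 2 (0.44) of 48 h. These changes span a change of code in each arm, and time and code cannot be told apart.

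**Figure D3:**
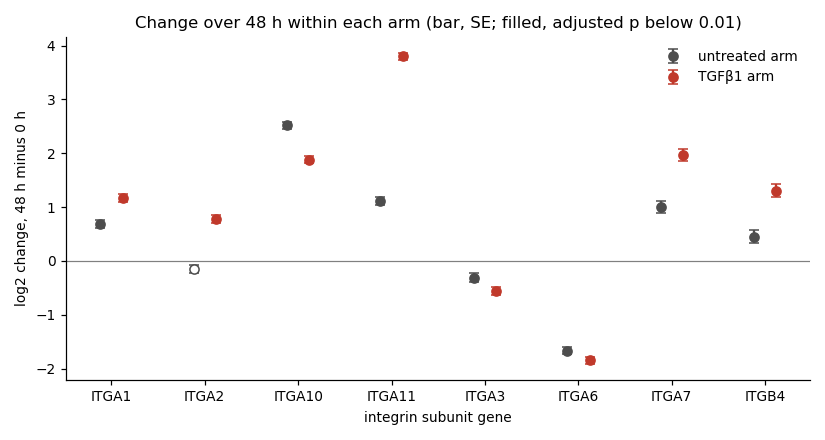
Log2 change of each subunit from 0 to 48 h in the untreated arm (grey) and the TGFβ1 arm (red) from limma voom on estimated counts, with bars for the SE and filled points for an adjusted p below 0.01. ITGA11 rose by 1.11 and 3.80, ITGA10 by 2.52 and 1.88, and ITGA6 changed by -1.67 and -1.85.

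Whether the arm difference itself changed with time was tested next. From 0 to 8 h it changed for 2 members, ITGA2 (0.92 ± 0.1, adjusted p = 1.3e-06) and ITGA11 (0.96 ± 0.097, 2.9e-07), against 7.88% of all genes. From 8 to 24 h it changed for ITGA1 and ITGA11, against 6.69% of all genes. From 24 to 48 h it changed for 4 members (ITGA1, ITGA3, ITGA7, ITGA11), against 9.11%. ITGA11 continued to grow apart, by 1.24 ± 0.092 and then 0.49 ± 0.09. ITGA1 opened by 0.79 ± 0.1 and then moved back by -0.51 ± 0.1. For ITGA10 and ITGB4 the change from 24 to 48 h did not pass (0.02 ± 0.086 and 0.27 ± 0.17).

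In TPM, the order of the members differed between groups. In untreated cells at 0 h ITGA3 (735 ± 55.9 SD, n = 3) was followed by ITGA6 (178 ± 12.3), ITGA2 (92.9 ± 6.47), ITGB4 (34.7 ± 4.83), ITGA11 (26.2 ± 1.8), ITGA1 (9.55 ± 1.68), ITGA10 (4.57 ± 0.585) and ITGA7 (3.26 ± 0.371). The libraries of neighbours in that order did not overlap. In untreated cells at 48 h ITGA11 (60.2 ± 3.4) and ITGA6 (59.9 ± 1.52) overlapped, and in the TGFβ1 arm at 8 h so did ITGB4 (67.2 ± 5.35) and ITGA11 (62.8 ± 4.19). In the TGFβ1 arm at 48 h ITGA11 stood next to the top with 348 ± 13.5 TPM after ITGA3 with 505 ± 19.3 TPM, and ITGA6 stood below ITGA2 and ITGB4 with 55.2 ± 1.61 TPM.

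Summed over the 4 collagen-binding α subunits, the level came to 133 ± 7.87 TPM at 0 h and 198 ± 6.57 TPM at 48 h in untreated cells. In the TGFβ1 arm it was 125 ± 19.9, 229 ± 9.02, 359 ± 14.5 and 552 ± 12.1 TPM at 0, 8, 24 and 48 h. The 3 laminin-binding α subunits summed to 705 ± 13.7 TPM in untreated cells and 570 ± 19.3 TPM in the TGFβ1 arm at 48 h. No library of either sum overlapped between the arms at that time. At 24 h the laminin-binding sum was instead higher in the TGFβ1 arm, 682 ± 35.2 against 584 ± 27.9 TPM, also without overlap. At 8 h it was 773 ± 12.8 against 736 ± 22.7 TPM, with overlap. At 0 h it was 869 ± 44.2 TPM in the TGFβ1 arm and 916 ± 44 TPM in untreated cells, also with overlap. ITGA3 alone was 90.7% ± 0.311 of the laminin-binding sum in untreated cells and 88.6% ± 0.442 in the TGFβ1 arm at 48 h. As a share of both sums, collagen-binding subunits were 21.9% ± 0.257 in untreated cells and 49.2% ± 0.682 in the TGFβ1 arm at 48 h, and 12.7% ± 1.09 and 12.5% ± 1.46 at 0 h. ITGA11 alone was 30.4% ± 0.877 of the collagen-binding sum in untreated cells and 63% ± 1.06 in the TGFβ1 arm at 48 h, and its share was 18.8 to 27.4% on average at 0 and 8 h, where ITGA2 was the largest part. These sums and shares were not tested.

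**Figure D4:**
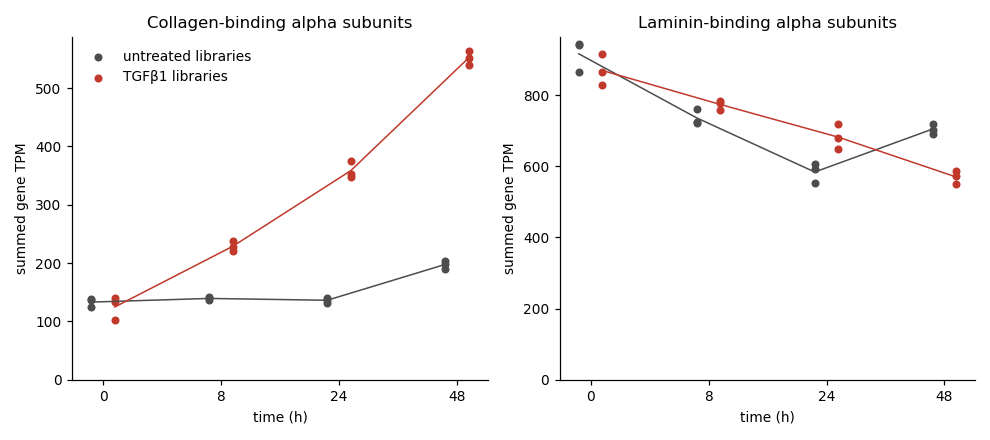
Summed gene TPM of the collagen-binding α subunits (ITGA1, ITGA2, ITGA10, ITGA11, left) and the laminin-binding α subunits (ITGA3, ITGA6, ITGA7, right) in each library against time in hours (time points evenly spaced), with lines through group means. At 48 h the collagen-binding sum was 552 TPM in the TGFβ1 arm and 198 TPM in untreated cells, and the laminin-binding sum 570 and 705 TPM. At 24 h the laminin-binding sum was 682 TPM in the TGFβ1 arm and 584 TPM in untreated cells.

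At the level of transcripts, 9 of 63 tested transcripts of the members passed at 48 h, 7 higher and 2 lower, and they belonged to 6 genes. Of all 82807 tested transcripts 6.67% passed. kallisto divides reads between isoforms that share exons, so these values are less certain than gene sums. The transcripts ITGA11-201 (log2 difference 2.51 ± 0.068) and ITGA11-202 (2.77 ± 0.048) were both higher, as were ITGA2-201 (0.90 ± 0.075), ITGA1-201 (0.46 ± 0.069) and ITGB4-203 (0.99 ± 0.12). ITGA10-201 was lower (-0.97 ± 0.12). No transcript of ITGA7 that held at least 10% of its TPM in some group passed at 48 h.

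The share of a gene's TPM held by its leading transcript was compared between the arms for the 6 members with at least 2 transcripts at 10% or more. An exact two-sided permutation test exchanged the labels of 18 libraries within 8, 24 and 48 h (8000 relabellings, smallest p 0.00025). For ITGA6, ITGA6-201 with the cassette exon shown above held 53.7, 53.1 and 55.2% in untreated cells and 47.3, 42.7 and 44.1% in the TGFβ1 arm at 24 h. At 48 h it held 53.1, 52.7 and 53.7% against 50, 44.9 and 47.4%. The arms overlapped at 0 and 8 h and were apart at 24 and 48 h. Over 8, 24 and 48 h the share differed by -6.04 percentage points, TGFβ1 minus untreated (exact permutation p = 5.0e-04, adjusted 0.0015). At 0 h the difference was already -2.17 points, and the share of ITGA6-202 at 0 h was 42 to 44.4% in untreated cells and 44.6 to 48.2% in the TGFβ1 arm, without overlap. ITGA6-202 itself was higher in the TGFβ1 arm at 24 h (log2 difference 0.48 ± 0.1, adjusted p = 0.0042), and at 48 h neither transcript passed. The models of these transcripts also differ in an exon that is 45 bases longer in ITGA6-202, so the share is not a count of reads on the cassette exon alone.

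**Figure D5:**
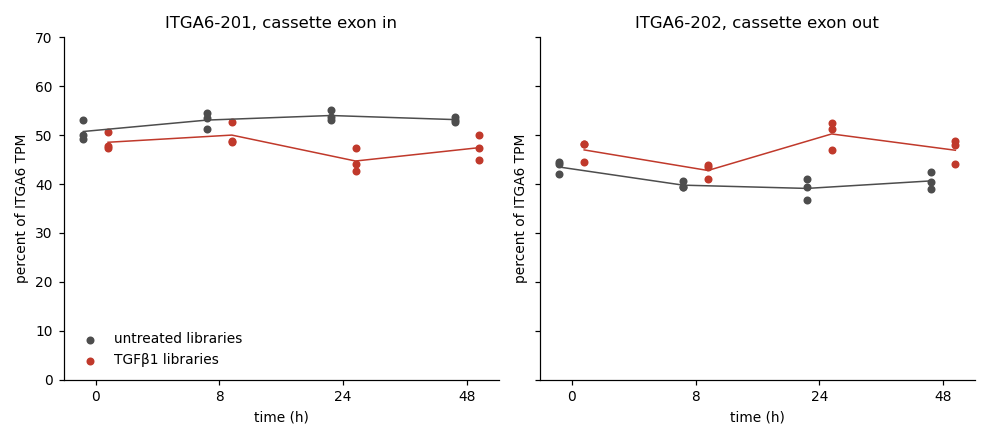
Percent of ITGA6 TPM held by ITGA6-201 (cassette exon included, left) and ITGA6-202 (skipped, right) in each library against time in hours (time points evenly spaced), grey for untreated and red for the TGFβ1 arm, with lines through group means. At 24 h ITGA6-201 held 54% in untreated cells and 44.7% in the TGFβ1 arm on average.

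ITGA7-220 was the other leading transcript whose share passed, with a difference of -7.55 points, TGFβ1 minus untreated (exact permutation p = 5.0e-04, adjusted 0.0015). It rested on 17.9 to 69.7 estimated counts per library, and its share at 0 h was 4.99 points higher in the TGFβ1 arm. The leading transcripts of ITGA1, ITGA10, ITGA11 and ITGB4 did not pass (exact permutation, adjusted p = 0.78, 0.67, 0.32 and 0.26). The ITGA11-201 share of estimated counts, in place of TPM, differed by -3.44 points and passed (exact permutation, adjusted p = 0.001).

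ITGB1 encodes the β1 chain with which all 7 α subunits here can pair. It was at 589 ± 14.5 TPM in untreated cells and 1045 ± 32.1 TPM in the TGFβ1 arm at 48 h. The log2 arm difference amounted to 0.22 ± 0.068 at 8 h (adjusted p = 0.023), 0.72 ± 0.069 at 24 h (2.5e-08) and 0.86 ± 0.069 at 48 h (1.3e-09). In untreated cells ITGB1 fell by 0.62 from 0 to 48 h on the log2 scale, and in the TGFβ1 arm it rose by 0.22.

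Other integrins, ligands and linked proteins were counted in lists of genes grouped by role, whose counts stand against 16.1% of all genes higher and 16.4% lower at 48 h and a median of -0.01. Of 17 other integrin genes, 6 were higher and 6 lower at 48 h, with a median log2 difference of -0.30. ITGB3, the β chain of a vitronectin receptor, was among the higher ones (3.27 ± 0.056), and ITGA8, an α chain of receptors for matrix proteins such as fibronectin and nephronectin, among the lower (-3.66 ± 0.14). Of 12 laminin chain genes 11 were tested, with 4 higher and 3 lower. LAMA4 was at 18.1 ± 0.334 TPM against 4.18 ± 0.488 TPM (log2 difference 2.44 ± 0.066), and LAMA1 at 1.44 ± 0.103 against 2.69 ± 0.132 TPM (-0.97 ± 0.068).

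Of 15 fibrillar and basement membrane collagen genes 14 were tested, with 7 higher and 4 lower at 48 h. COL1A1, the main chain of collagen I, had a log2 difference of 3.89 ± 0.13. COL2A1, the cartilage collagen, had -2.40 ± 0.32 on estimated counts but 0.18 ± 0.122 against 0.222 ± 0.0383 TPM, so its scales gave different sizes. The hemidesmosome list held 5 genes of which only PLEC and DST were tested, and PLEC, the plectin that links β4 to keratin, was higher (0.93 ± 0.16). COL17A1, KRT5 and KRT14 of that list had at most 16.3 estimated counts in any library.

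Among 14 tetraspanins and adaptors, which sit beside integrins in the membrane or bind their tails, 9 were higher and 2 lower at 48 h with a median of 0.29, against the same 16.1% and 16.4% of all genes. CD82, a tetraspanin, was higher by 1.45 ± 0.079 and TLN2, a talin, by 0.79 ± 0.16. Among 9 other laminin and collagen receptors 3 were higher and 2 lower. The syndecans SDC1 and SDC4, proteoglycans of the cell surface, went in opposite directions (1.12 ± 0.085 and -1.28 ± 0.039). Scaling to the reference genes moved the counts at 48 h to 7 higher and 5 lower for other integrins and to 6 higher and 1 lower for laminin chains, and there the medians changed from below 0 to 0.05 and 0.24. It gave 12 higher and 0 lower for tetraspanins and adaptors. For the other receptors and for collagens it gave 7 higher and 2 lower each. Under that scaling 8373 of all 17453 tested genes were higher and 1084 lower at 48 h, with a median of 0.34.

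Over the 24 libraries, the genes whose log2 CPM (counts scaled to library size with TMM factors) ran most like each member were listed with Pearson's r as a description, since libraries of a group share their arm, time and code. For ITGA11 these were TIMP2 (r = 0.997), BEAN1 and BGN (both 0.99). ITGA6 ran most like TRA2B (0.993), RFWD3 and SKP2 (both 0.99), and ITGA10 most like RASSF4 (0.99), HEXA (0.988) and ATG16L2 (0.987). For ITGB4 they were RBM15B (0.986), HDAC7 (0.982) and WDR81 (0.981), and for ITGA2 TNFAIP8, DIP2B (both 0.976) and SEC24D (0.975). ITGA1 ran most like DYM, FOCAD (both 0.963) and MED13L (0.958), ITGA7 like ZNF853 (0.962), ALPK3 and VASH1 (both 0.956), and ITGA3 like ADAM8 (0.941), ABCF2 (0.931) and RNPS1 (0.926). Between members, r ranged from -0.9 for ITGA10 with ITGA6 to 0.91 for ITGA11 with ITGB4.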

How the data were processed

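Total RNA of SK-MES-1 cells was sequenced by the authors on an Illumina instrument and quantified with kallisto 0.43.0 against Ensembl release 79 transcripts of GRCh38. The estimated counts deposited by the authors are expected reads per transcript, neither normalized nor whole. The deposited TPM values divide them by effective length and scale each library to the same total. Transcripts were assigned to genes with GENCODE release 44 (89.8% of 173259 matched, holding 94.82 to 95.18% of each library's counts), and counts were summed per gene and rounded.

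Genes with at least 10 counts in at least 3 libraries (17453) were tested with limma 3.58.1 (voom, TMM factors, 1 mean per group over all 24 libraries) in R 4.3.3, with Benjamini-Hochberg adjustment over all genes and a threshold of 0.01. Replicates are separate samples in the labels, and p-values measure the spread between them only. In 24 pairs of replicates the chi-square per gene was 3.17 to 60.48, more than sampling noise gives. The quasi-likelihood test of edgeR 4.0.16 and DESeq2 1.42.0 served as alternatives, with other scalings, filters, thresholds, a replicate block and each library left out. Scripts were tested on simulated data. Effective lengths served only for length-scaled counts. All members were named, with transcripts of at least 10% of a member's TPM, 3 genes most like each and, per list, the 2 listed genes with the largest passing difference at 48 h. The members, lists and tests were chosen with earlier results of these data known. Summaries used pandas 2.3.3 (Python 3.11.15) and figures matplotlib 3.10.9. Values of some listed genes are not reported here.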

Additional observations from a re-analysis of the deposited data

Results flagged for a closer look

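For 4 members the arm difference itself changed from 8 to 24 h or from 24 to 48 h in limma voom. Of all genes 6.69% changed from 8 to 24 h and 9.11% from 24 to 48 h. The changes from 0 to 8 h are given above. From 8 to 24 h the log2 difference of ITGA1 changed by 0.79 (adjusted p = 1.8e-05) and that of ITGA11 by 1.24 (8.9e-09). From 24 to 48 h that of ITGA1 changed by -0.51 (0.0013), of ITGA3 by -0.58 (0.0015), of ITGA7 by 0.86 (1.4e-04) and of ITGA11 by 0.49 (6.6e-04). The changes from 8 to 24 h span a change of code in both arms, and the cause of none of them was tested. The ITGA1 change from 24 to 48 h did not pass with length-scaled counts (-0.56, adjusted p = 0.035), reference gene scaling (-0.51, 0.017) or log2(TPM + 1) (-0.52, 0.077).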

How the results depend on the processing

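Of 1758 values of single genes under the alternatives, 1698 kept their direction and side of the threshold. The alternatives were 19 settings and 24 fits that each left out 1 library. Leaving out a library of another time hardly moves the difference within a time, so much of this agreement was given by the design. Requiring 2-fold as well left 2 members in the F-test (ITGA2, ITGA11), 0, 2 and 1 at 8, 24 and 48 h, 0, 1 and 0 for the changes of the arm difference from 0 to 8, 8 to 24 and 24 to 48 h, and 3 in untreated cells over 48 h. Set against 0 h, 2 members passed at 8 h (7.88% of all genes). With reference genes 8 passed at 24 h, where 53.2% of all genes did against 29.3%. With that scaling 4 changed their arm difference from 0 to 8 h and 4 from 8 to 24 h (8.83% and 17.9% of all genes). With log2(TPM + 0.1) 1 changed from 8 to 24 h (3.99%). At an adjusted p of 0.05, 4 changed from 0 to 8 h. The shares of all genes at that threshold and with the 2-fold rule are not reported here. The replicate number as a block gave 4 members from 0 to 8 h (9.16% of all genes). A replicate block within each time point gave 5 there and 7 from 24 to 48 h (13.9% and 18.6% of all genes). Whether the numbers pair the libraries was not settled. Of 12 same-numbered pairs, 4 correlated above 0.1, all of them at 0 or 24 h (0.144 to 0.301). Those of 8 and 48 h ranged from -0.047 to 0.092.

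Reference gene scaling reversed ITGA3 at 48 h (0.05) and ITGA6 at 8 h (0.04) and 48 h (0.25). Of the 4 reference genes, 3 were themselves lower in the TGFβ1 arm at 48 h with TMM factors. ITGA7, which did not pass at 8 and 24 h, was reversed on log2(TPM + 1) (-0.13 and -0.27), log2(TPM + 0.1) (-0.16 and -0.32) and length-scaled counts (-0.10 and -0.28), and at 24 h with library totals (-0.04). The cause was not tested. Leaving out single libraries from the share tests, an alternative chosen after seeing the data, gave ITGA1-206 -0.68 to 1.55 points (reversed at -0.68, -0.48 and -0.03), ITGA10-201 -3.68 to 0.03, ITGB4-203 2.14 to 3.98 and ITGA6-201 -6.49 to -5.62. ITGB4-203 at 3.98, without TGFβ1 replicate 2 at 8 h, was below 0.05 but not below 0.01 (exact permutation, adjusted p = 0.04). ITGA11-201 as a share of counts passed at -3.44 (exact permutation, adjusted p = 0.001). ITGA7 rested on the fewest estimated counts of the members (149 to 709 per library), divided further between its transcripts.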
